A study of Mus musculus with 12 samples.

Results

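The protocadherins are the largest family of cadherin-type adhesion proteins, and 62 of the 16399 genes listed in the study's 5 comparisons carry a symbol that begins with Pcdh. All 62 were taken as members, with no use of their values. They fall into 10 genes of the alpha cluster, 21 of the beta cluster, 22 of the gamma cluster and 9 unclustered genes. Fresh tumours of the mouse colon carcinoma line MC38 (strain given as C57BL/6 albino) had been dissociated, and the fragments treated for 6 days in collagen inside microfluidic chips. The 12 samples formed 4 groups of 3, treated with a control IgG (clone 2A3, 10 µg/mL), a PD-1 antibody (aPD-1, clone RMP1-14, 10 µg/mL), the same PD-1 antibody with a CD8 antibody (clone 53-6.7, 10 µg/mL; aPD-1+CD8), or interferon-gamma protein (IFNg, 100 ng/mL). T cells carry PD-1 as a brake on their activity, and killer T cells are recognised by CD8. In every group the fragments measured 40 to 100 µm and held whatever host cells remained in them. For the IFNg samples no antibody is named. Whether the 3 samples of a group were separate animals or cultures is not stated, so each p-value reflects the spread among these samples alone, and that spread may be technical.

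Protocadherins are single-pass membrane proteins with cadherin repeats outside the cell, and they bind mainly to the same protein on a neighbouring cell. The clustered genes lie side by side on 1 chromosome. Each alpha and gamma gene joins its own variable exon, with its own promoter, to constant exons that it shares with the rest of its cluster, while each beta gene codes for its whole protein in its own exon. In neurons each cell switches on a few of the A- and B-type variable exons from among many, with CTCF and cohesin joining promoters to distant enhancers and DNA methylation silencing the rest, whereas the C-type exons follow other rules. The combination gives a neuron its surface identity. The unclustered genes include the delta group, Pcdh1, Pcdh7, Pcdh9, Pcdh10, Pcdh17, Pcdh18 and Pcdh19 here, which act in cell sorting and migration in many tissues. Pcdh15 forms the tip links of inner ear hair cells, and Pcdh12 is known from endothelium.

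The files held the authors' DESeq2 results for whole comparisons, not values of single samples, so the data behind each member are its mean normalized count over the 6 libraries of a comparison, its log2 fold change with standard error, and its adjusted p. The fold changes are shrunken toward 0, which understates them for low counts and in comparisons with few changed genes. To show a level in each treatment, the group means of 3 libraries were worked out from the mean counts of the 5 overlapping comparisons, after a scale factor per comparison. After scaling, 5701 genes fitted 1 set of group means with a median gap of 0.0302% of the mean. The ratios of these inferred levels differed from the deposited fold changes of 1483 genes with high counts by a median of -0.0025 to 0.0024 in log2. The median absolute differences were 0.0065 to 0.015. The scale factors of aPD-1 v IgG were fitted to deposited fold changes of these same genes, so this closeness is not an independent check. Inferred levels have no error of their own and are given as a description. They are not corrected for gene length, so they are compared between treatments and not between genes.

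The depth for this family was low. Of the 62 members 31 reached a mean normalized count of 10 in at least 1 comparison: 3 of 10 alpha, 13 of 21 beta, 10 of 22 gamma and 5 of 9 unclustered genes. The 32 members described by name below are these and Pcdha10, which was called at a mean count of up to 7.72. The highest mean count of each of the other 30 was between 0.127 and 9.61, and none of them was called in any comparison. Among these 30 were Pcdh12 with at most 0.304, Pcdh15 with at most 1.12 and the C-type alpha genes Pcdhac1 and Pcdhac2 with at most 0.421 and 0.57, so changes in these were not detectable at this depth. The other 4 alpha genes and the 1 other beta gene of the RefSeq annotation are not analysed here. The mapping of reads bears on the clusters: in RefSeq's GRCm38.p6 gene table all 14 alpha genes end within 1240 bases of each other and all 22 gamma genes within 1384 bases, because of their shared exons, and neighbouring beta genes are near-copies. No source used here says how the authors' counting split such reads, so values of single alpha, beta and gamma genes are uncertain in that respect. Within 1 comparison the gamma genes did not all carry the same count, with mean counts from 2.94 to 1198 in aPD-1 v IgG in the authors' deposited table.

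Promoters are shown for the 3 unclustered genes that passed the test, since these moved in the same direction under aPD-1. The sequences are RefSeq's, in build GRCm38.p6, from 250 bases before to 50 after the start of each gene, with CpG dinucleotides in capitals.
Pcdh19 (chrX:133688944-133689243, - strand): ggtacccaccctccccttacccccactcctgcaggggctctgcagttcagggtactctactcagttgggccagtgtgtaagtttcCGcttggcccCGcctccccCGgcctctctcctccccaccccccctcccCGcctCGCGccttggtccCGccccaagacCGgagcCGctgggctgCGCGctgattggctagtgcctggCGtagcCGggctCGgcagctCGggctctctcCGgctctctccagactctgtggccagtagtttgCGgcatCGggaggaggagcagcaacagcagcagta
Pcdh18 (chr3:49757267-49757566, - strand): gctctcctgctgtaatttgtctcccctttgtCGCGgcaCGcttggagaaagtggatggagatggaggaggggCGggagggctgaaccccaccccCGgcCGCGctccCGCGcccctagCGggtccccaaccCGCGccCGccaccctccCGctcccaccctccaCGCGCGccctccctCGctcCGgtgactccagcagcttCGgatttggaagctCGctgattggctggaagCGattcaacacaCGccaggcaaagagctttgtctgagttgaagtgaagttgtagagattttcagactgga
Pcdh7 (chr5:57717831-57718130, + strand): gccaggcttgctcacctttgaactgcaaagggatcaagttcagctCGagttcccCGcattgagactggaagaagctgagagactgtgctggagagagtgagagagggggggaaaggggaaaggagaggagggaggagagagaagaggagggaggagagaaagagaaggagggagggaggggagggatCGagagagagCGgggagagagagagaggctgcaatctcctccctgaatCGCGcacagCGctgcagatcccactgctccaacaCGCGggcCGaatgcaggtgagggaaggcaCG
The windows of Pcdh19, Pcdh18 and Pcdh7 held 18, 23 and 11 CpG dinucleotides, against a median of 7 over 32851 promoters of the same length with quartiles at 3 and 20. Their GC content was 67.7%, 63.0% and 59.3%, against a median of 52.7%. The windows of Pcdh19 and Pcdh18 each held the GC box GGGCGG once, a motif found in 35.7% of all promoters on either strand. The windows of Pcdh19 and Pcdh7 each held 1 E-box CANNTG, found in 72.3% of all promoters. None of the 3 windows held the sequence TGACG, part of the cAMP response element, found in 20.8% of all promoters, the AP-1 site TGANTCA, in 7.81%, or the interferon-gamma activated site TTCNNNGAA, in 8.30%. Matches were counted on both strands with overlaps allowed, and they describe these letters only.

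Under PD-1 blockade part of the family rose. Of 61 listed members 50 had an adjusted p, and 12 of these were higher with aPD-1 than with IgG at an adjusted p under 0.05 (24.0%), where 8.5% of 12024 tested genes were. None was lower (DESeq2; 0 also at an unadjusted p under 0.05, and 18 higher), while 10.0% of all tested genes were lower. The 12 were Pcdh19, Pcdh18 and Pcdh7 among the unclustered genes, Pcdha8 and Pcdha10, Pcdhb5, Pcdhb15, Pcdhb16, Pcdhb17 and Pcdhb19, and Pcdhgb2 and Pcdhgb4. In the authors' deposited table the median log2 fold change was 0.456 over the 61 members and 0.014 over all 15677 genes. Of the 61 members 55 were above 0, where 51.9% of all genes were. Against the spread of the Wald scores of all genes in place of a standard normal, an alternative called the empirical null, fewer genes passed. Under it 1 of the 50 tested members passed (Pcdh19), a smaller share than the 4.32% of all tested genes, counted in either direction.

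**Figure D1:**
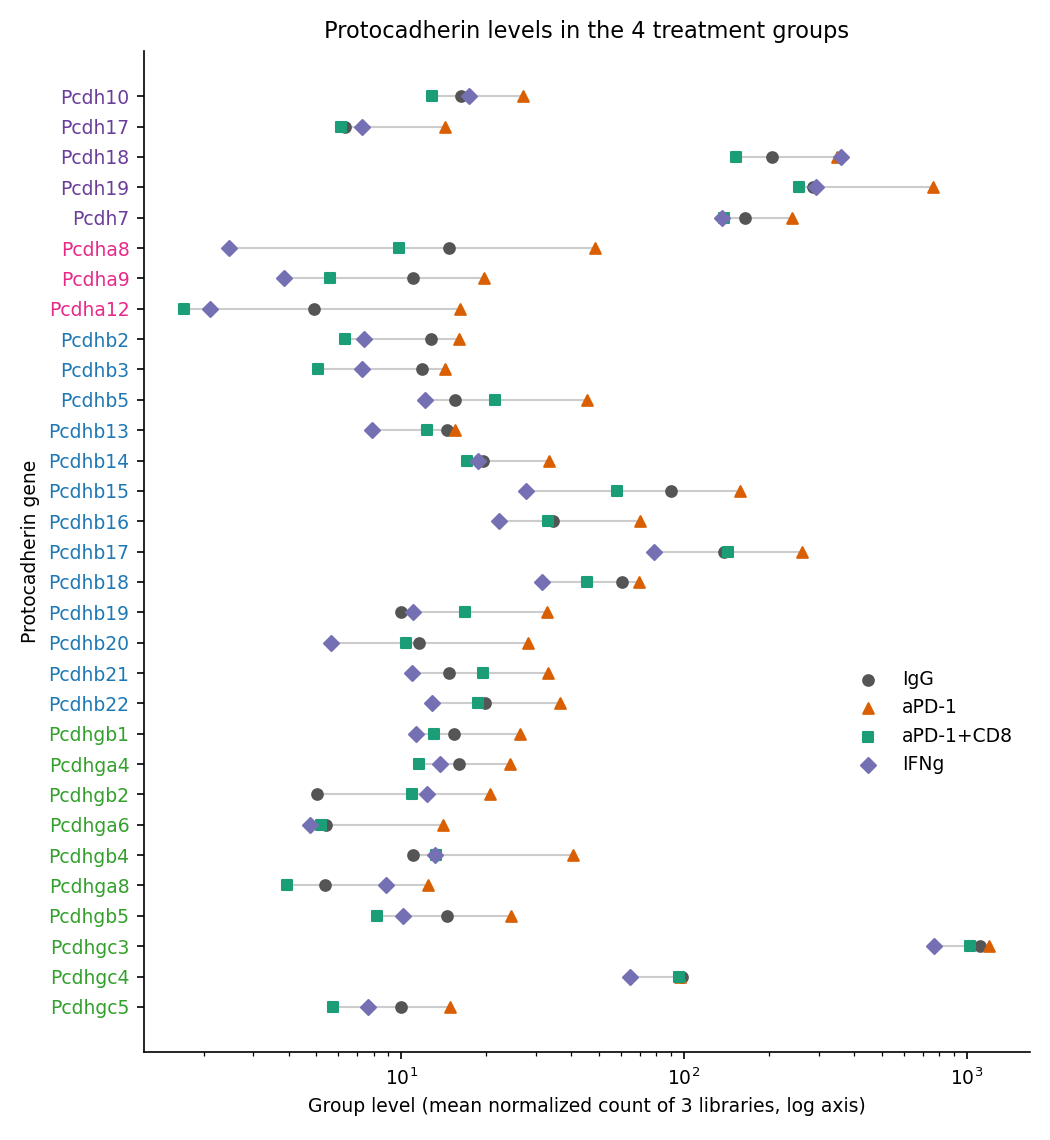
Inferred group levels (mean normalized count of 3 libraries, log axis) of the 31 protocadherins whose mean count reached 10 in a comparison, in IgG, aPD-1, aPD-1+CD8 and IFNg; names are coloured by cluster (purple unclustered, pink alpha, blue beta, green gamma) and no error is available. The aPD-1 level is the highest for 29 genes, the exceptions being Pcdh18 and Pcdhgc4.

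The inferred levels show this member by member. For 29 of the 31 members with enough counts the aPD-1 group was the highest of the 4 treatments, whereas it was the highest for 37.6% of all 10511 genes with the same minimum. Several of the 31 reached that minimum only in comparisons that hold the aPD-1 libraries, so a high aPD-1 level helped to let them in. With the minimum set only in comparisons without those libraries, a choice made after seeing the data, aPD-1 was the highest group for 21 of 23 members and for 36.6% of 10295 genes. With no minimum it was the highest for 46 of 54 members and for 36.7% of 14097 genes. Among the 31 members the lowest group was IFNg for 16, aPD-1+CD8 for 12, IgG for 3 and aPD-1 for 0. Over the 10511 genes these shares were 26.1%, 18.5%, 18.6% and 36.8% in the same order. The summed level of the 5 unclustered members rose from 679 in IgG to 1392 in aPD-1, a ratio of 2.05, and stood at 566 in aPD-1+CD8 and 815 in IFNg. Most of that rise came from Pcdh19, which went from 287 in IgG to 760 in aPD-1. The summed level of the 3 alpha members went from 30.7 in IgG to 84.2 in aPD-1, 17.2 in aPD-1+CD8 and 8.42 in IFNg. Over all 5 alpha genes with levels, Pcdha10 among them, the sums were 31.7, 93.8, 20.5 and 18.3 in the same order, so the IFNg sum depends on which genes are counted. The 13 beta members summed to 453 in IgG, 814 in aPD-1, 407 in aPD-1+CD8 and 254 in IFNg. The sum of the 10 gamma members, most of it from Pcdhgc3, was 1299 in IgG, 1479 in aPD-1, 1195 in aPD-1+CD8 and 912 in IFNg. The sums are descriptions without a test.

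Pcdh19, a delta protocadherin on the X chromosome whose mutation causes an epilepsy, had the lowest adjusted p of the family in aPD-1 v IgG. Its inferred level was 287 in IgG, 760 in aPD-1, 256 in aPD-1+CD8 and 293 in IFNg. Only the aPD-1 group stood apart among these 4 levels. For aPD-1 v IgG the authors' deposited table gives a log2 fold change of 1.30 ± 0.20 (SE, 3 against 3 samples; adjusted p = 1.6e-09). In the authors' deposited tables it was also lower in aPD-1+CD8 than in aPD-1, at -1.43 ± 0.24 (adjusted p = 1.5e-07), and lower in IFNg than in aPD-1, at -1.30 ± 0.24 (adjusted p = 1.6e-06).

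Pcdh18, another delta protocadherin, departed from this in 1 respect. Its inferred level was 204 in IgG, 348 in aPD-1, 153 in aPD-1+CD8 and 360 in IFNg, so that aPD-1 and IFNg were both high. It rose in aPD-1 v IgG by 0.71 ± 0.17 (adjusted p = 0.00046) and was lower in aPD-1+CD8 than in aPD-1 at -1.10 ± 0.22 (adjusted p = 2.4e-05), in the authors' deposited tables. IFNg v IgG gave 0.63 ± 0.24 without passing (adjusted p = 0.13), and IFNg v aPD-1 gave 0.05 ± 0.27 (adjusted p = 0.95), in the authors' deposited tables. Pcdh7, which binds the phosphatase inhibitor SET inside the cell, had inferred levels of 165, 242, 138 and 137 in IgG, aPD-1, aPD-1+CD8 and IFNg. In the authors' deposited tables its changes were 0.51 ± 0.18 in aPD-1 v IgG (adjusted p = 0.035), -0.74 ± 0.24 in aPD-1+CD8 v aPD-1 (adjusted p = 0.018) and -0.78 ± 0.23 in IFNg v aPD-1 (adjusted p = 0.0072). Pcdh10, at 0.53 ± 0.35, and Pcdh17, at 0.70 ± 0.40, missed the threshold in the authors' deposited table (aPD-1 v IgG).

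In the alpha cluster Pcdha8 had the widest range over the treatments. Its inferred level was 14.8 in IgG, 48.5 in aPD-1, 9.83 in aPD-1+CD8 and 2.46 in IFNg, the last close to the floor of the counts. In the authors' deposited tables it rose in aPD-1 v IgG by 1.37 ± 0.34 (adjusted p = 0.00055) and was at -1.70 ± 0.37 in aPD-1+CD8 v aPD-1 (adjusted p = 0.00011). IFNg was lower than IgG, at -0.87 ± 0.27 (adjusted p = 0.037), and lower than aPD-1, at -3.04 ± 0.44 (adjusted p = 3.7e-10), in the authors' deposited tables. Pcdha12 had inferred levels of 4.91 in IgG, 16.1 in aPD-1, 1.71 in aPD-1+CD8 and 2.11 in IFNg. It missed the threshold in aPD-1 v IgG (0.94 ± 0.41, adjusted p = 0.10) and passed downward in aPD-1+CD8 v aPD-1 (-1.40 ± 0.43, adjusted p = 0.011), in the authors' deposited tables. Pcdha9 kept the same order of aPD-1 and IgG, with 19.6 in aPD-1 against 11.0 in IgG, and was called in no comparison. Pcdha10 passed at 1.08 ± 0.40 in the authors' deposited table (aPD-1 v IgG) (adjusted p = 0.040), on inferred levels of 0.834 in IgG, 8.93 in aPD-1, 2.37 in aPD-1+CD8 and 6.94 in IFNg. Unlike the other named alpha genes it was not low in IFNg by these levels. It stayed below a mean count of 10 in every comparison.

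In the beta cluster 5 of 17 tested genes rose with aPD-1 and 0 fell. Pcdhb17 had inferred levels of 138 in IgG, 262 in aPD-1, 143 in aPD-1+CD8 and 78.7 in IFNg. It changed by 0.83 ± 0.22 in aPD-1 v IgG (adjusted p = 0.0014) in the authors' deposited table. Pcdhb15 stood at 90.1 in IgG, 158 in aPD-1, 58.1 in aPD-1+CD8 and 27.6 in IFNg, with a change of 0.75 ± 0.22 in aPD-1 v IgG (adjusted p = 0.0066) in the authors' deposited table. For both genes IFNg was the lowest group and aPD-1 the highest. Pcdhb19 rose by 1.24 ± 0.36, Pcdhb5 by 1.19 ± 0.34 and Pcdhb16 by 0.88 ± 0.28 in the authors' deposited table (aPD-1 v IgG), with inferred aPD-1 levels 3.26, 2.92 and 2.03 times those of IgG. Pcdhb20, Pcdhb21, Pcdhb22 and Pcdhb14 also had their highest inferred level in aPD-1, at 28.2, 33.1, 36.4 and 33.3 against 11.6, 14.8, 19.8 and 19.5 in IgG, but were not called. Pcdhb2, Pcdhb3 and Pcdhb13 lay closer together, with 16.0, 14.3 and 15.5 in aPD-1 against 12.7, 11.9 and 14.5 in IgG. Pcdhb18 was at 0.18 ± 0.25 and did not pass, with inferred levels of 60.3 in IgG and 69.5 in aPD-1.

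**Figure D2:**
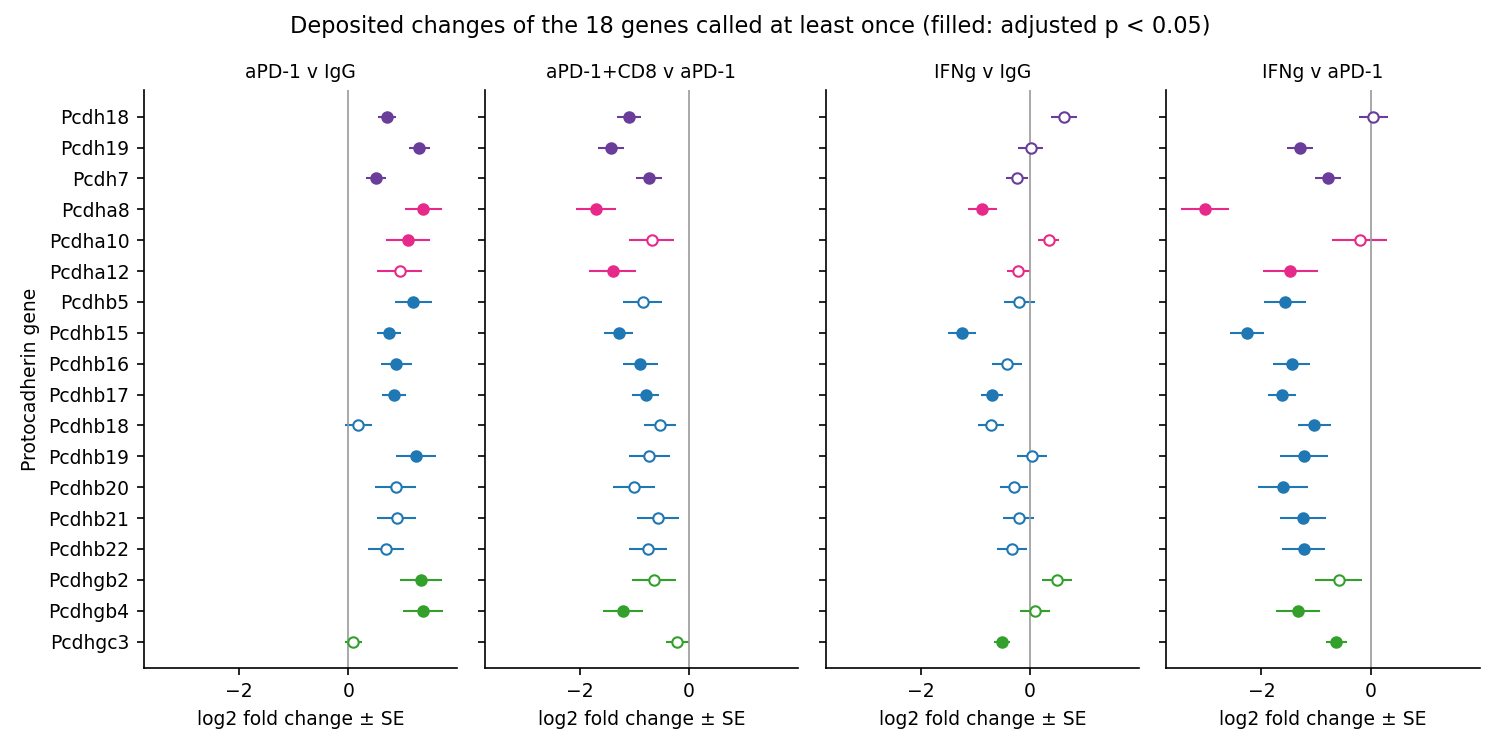
Deposited log2 fold changes with standard errors (bars) of the 18 protocadherins called in at least 1 comparison, in 4 comparisons of 3 against 3 samples; filled points have an adjusted p under 0.05 and colours mark the cluster. Calls are all to the right of 0 in aPD-1 v IgG and all to the left in the other 3 panels.

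In the gamma cluster 2 of 22 tested genes rose with aPD-1, both with B-type variable exons, a share near the 8.5% of all tested genes. Of its 19 A- and B-type genes, all 19 had a fold change above 0 in the authors' deposited table (aPD-1 v IgG), with a median of 0.456, and Pcdhgb4 and Pcdhgb2 passed. Over all genes 51.9% were above 0. Reads of the shared exons could tie the signs of these 19 genes together. Pcdhgb4 had inferred levels of 11.0 in IgG, 40.7 in aPD-1, 13.3 in aPD-1+CD8 and 13.2 in IFNg, and a change of 1.37 ± 0.36 in aPD-1 v IgG (adjusted p = 0.0018) in the authors' deposited table. Pcdhgb2 had 5.05 in IgG against 20.6 in aPD-1, 10.9 in aPD-1+CD8 and 12.4 in IFNg, and rose by 1.33 ± 0.39 (adjusted p = 0.0060) in the authors' deposited table. The other A- and B-type genes with enough counts, Pcdhga4, Pcdhga6, Pcdhga8, Pcdhgb1 and Pcdhgb5, were between 12.4 and 26.4 in aPD-1 and between 5.40 and 16.1 in IgG, and none was called. Summed over the 19 genes the inferred level was 115 in IgG, 238 in aPD-1, 107 in aPD-1+CD8 and 111 in IFNg.

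The 3 C-type genes were not called in aPD-1 v IgG. Pcdhgc3, which is broadly expressed outside the nervous system, had inferred levels of 1118 in IgG, 1205 in aPD-1, 1027 in aPD-1+CD8 and 765 in IFNg. Its change in the authors' deposited table (aPD-1 v IgG) was 0.09 ± 0.16, with a 95% interval from -0.22 to 0.40, so a rise as large as the 0.83 of Pcdhb17 lies outside that interval. Pcdhgc4, an isoform that neurons need to survive, stood at 98.5, 96.7, 95.9 and 64.6 in IgG, aPD-1, aPD-1+CD8 and IFNg. Its change in the authors' deposited table (aPD-1 v IgG) was -0.05 ± 0.24, with a 95% interval from -0.52 to 0.42. Pcdhgc5 had fewer counts and a wide interval, from -0.41 to 1.14, around 0.36, which holds the median of the A- and B-type genes. The split into types was looked at after the values were known, and the difference between the types was not tested. The deposited fold changes of the low A- and B-type genes are also shrunken more than those of Pcdhgc3.

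With the CD8 antibody added, part of the family was lower than with aPD-1 alone. This comparison, aPD-1+CD8 v aPD-1, uses the same aPD-1 libraries as aPD-1 v IgG, so the 2 comparisons are not independent and their values are only set side by side. Of 49 tested members 9 were lower with aPD-1+CD8 (18.4%), where 6.94% of 11560 tested genes were, and 0 were higher (DESeq2; 0 also at an unadjusted p under 0.05, and 18 lower), where 7.82% of all were. They were Pcdh19, Pcdh18, Pcdh7, Pcdha8, Pcdha12, Pcdhb15, Pcdhb16, Pcdhb17 and Pcdhgb4. Of 58 listed members 54 were below 0 in the authors' deposited table, with a median of -0.60 against -0.02 over all genes. Among all 15461 genes 8041 were below 0. Of the 12 members that rose with aPD-1, 8 were called lower here. The matching overlap over all genes was not worked out, so it is not read as a trait of the family. Pcdhb15 was at -1.29 ± 0.27 (adjusted p = 3.8e-05) and Pcdhb17 at -0.80 ± 0.24 (adjusted p = 0.011), in the authors' deposited table. Against the empirical null 1 of the 49 tested members passed (Pcdh19), a smaller share than the 3.39% of all tested genes, counted in either direction. Pcdhgc3 at -0.21 ± 0.21 and Pcdhgc4 at -0.01 ± 0.25 missed the threshold, in the authors' deposited table.

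Between aPD-1+CD8 and IgG 0 of 58 members were called, and 0.0% of 15304 tested genes were (DESeq2). At an unadjusted p under 0.05 there was 1 member, Pcdhb15, lower with aPD-1+CD8 in that comparison, beside 21 genes of any kind higher and 36 lower. The fold changes of this comparison were shrunken so strongly that those of the family lay between -0.227 and 0.086 in the authors' deposited table, and they carry little on sizes. By the inferred levels, Pcdh19, Pcdh7, Pcdhb16 and Pcdhb17 in aPD-1+CD8 stood at 0.891, 0.841, 0.959 and 1.03 times IgG. Pcdhb15 stood at 0.644 and Pcdh18 at 0.747 times IgG. Over the 31 members with enough counts this ratio ran from 0.348 for Pcdha12 to 2.16 for Pcdhgb2, both on low counts.

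**Figure D3:**
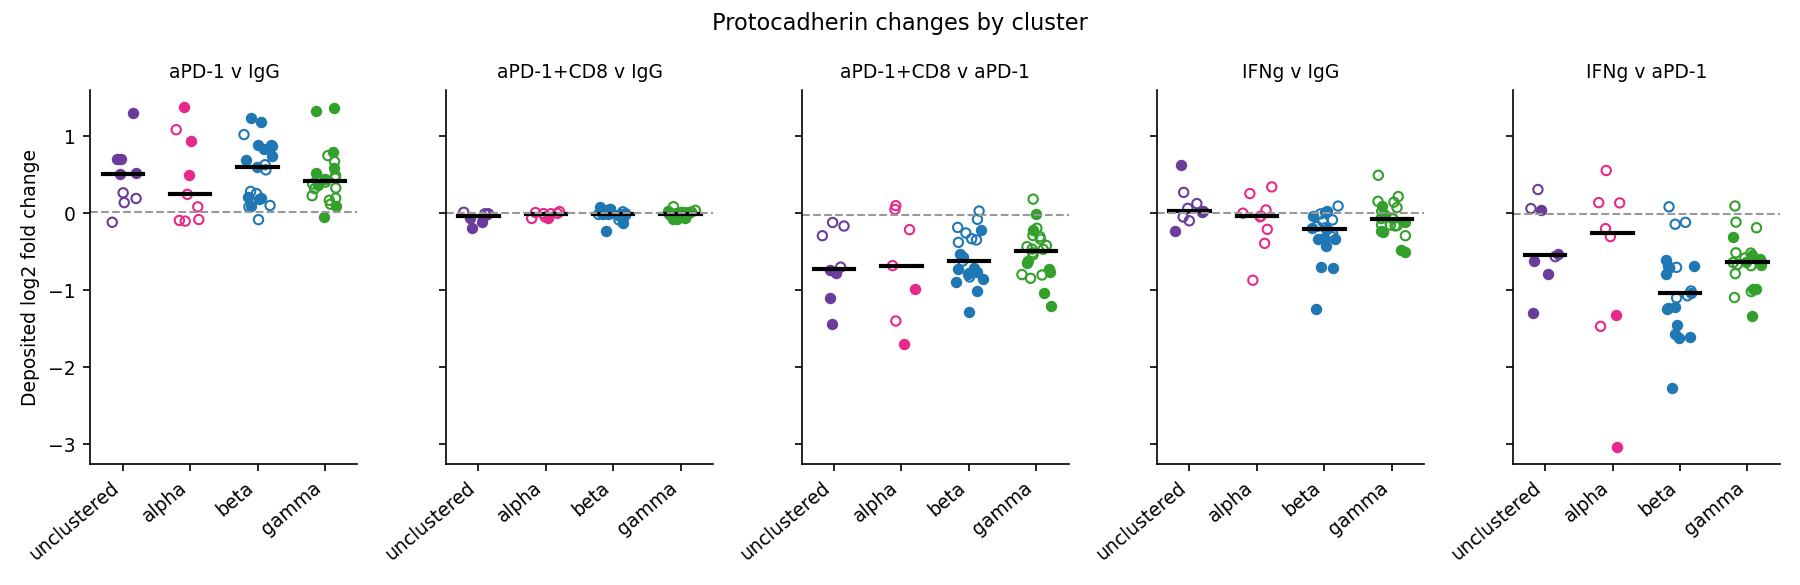
Deposited log2 fold changes of every listed protocadherin by cluster in the 5 comparisons; filled points have a mean normalized count of at least 10, open points less, black bars are medians of the cluster and the dashed line is the median of all genes. Medians of all 4 clusters lie above the dashed line in aPD-1 v IgG and below it in both comparisons with aPD-1 as the reference.

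Some clustered genes were lower with interferon-gamma. Against IgG 4 of 41 tested members were lower (9.76%), where 1.38% of 11478 tested genes were, and 0 were higher (DESeq2; at an unadjusted p under 0.05, 6 were lower and Pcdh18 higher), where 2.73% of all were. The 4 were Pcdhb15 at -1.25 ± 0.25 (adjusted p = 4.5e-05), Pcdhgc3 at -0.51 ± 0.15 (adjusted p = 0.024), Pcdhb17 at -0.69 ± 0.21 (adjusted p = 0.025) and Pcdha8, in the authors' deposited table. Pcdhb15 alone passed at an adjusted p of 0.01, and alone against the empirical null. Of all tested genes 2.80% and 3.03% did so in either direction, both larger shares than 1 of 41 members. Pcdhb18 at -0.71 ± 0.24 (adjusted p = 0.070) and Pcdhgc4 at -0.48 ± 0.24 (adjusted p = 0.40) missed the threshold, in the authors' deposited table. Of 20 listed beta genes 17 were below 0 in the authors' deposited table, with a median of -0.201, while the median of the 9 unclustered genes was 0.032 and that of all genes 0.006. Among all 15435 genes 7467 were below 0. No unclustered gene was called, among 6 tested. The difference between beta and unclustered genes was not tested.

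The comparison of IFNg with aPD-1 held the most calls. It shares its libraries with the comparisons above. Of 51 tested members 15 were lower with IFNg (29.4%), where 7.13% of 12260 tested genes were, and 0 were higher (DESeq2; 0 also at an unadjusted p under 0.05, and 23 lower), where 8.39% of all were. The 15 were Pcdh19 and Pcdh7, Pcdha8 and Pcdha12, Pcdhgb4 and Pcdhgc3, and 9 beta genes. Of the 12 members called higher in aPD-1 v IgG, 9 were lower here, and 7 were called in all 3 comparisons that use the aPD-1 libraries. For these overlaps too, the matching shares over all genes were not worked out. In the authors' deposited table Pcdhb15 was at -2.27 ± 0.31 (adjusted p = 1.5e-11) and Pcdhb17 at -1.63 ± 0.25 (adjusted p = 3.6e-09). Both passed against the empirical null, as did Pcdha8 and Pcdh19. That made 4 of the 51 tested members, all among the 15, while 4.49% of all tested genes passed in either direction.

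The beta calls lay together along the chromosome. The beta genes are numbered in their chromosomal order, and all 8 of the last, Pcdhb15 to Pcdhb22, were lower in IFNg than in aPD-1, between -2.27 and -1.03 in the authors' deposited table. Of the 13 listed genes before them, Pcdhb2 to Pcdhb14, 1 was called, Pcdhb5 at -1.57 ± 0.39 (adjusted p = 0.00088) in the authors' deposited table. The depth of the stretches differed: the median mean count was 34.4 in the last 8 and 4.80 in the 13 before, of which 5 reached 10. Of all 21 beta genes 17 had an adjusted p, so some of the 13 could not be called. The median was -0.703 in the 13 and -1.35 in the last 8, in the authors' deposited table. The stretches were chosen after the values were seen, their difference was not tested, and reads shared between near-copies could tie neighbours together. In aPD-1 v IgG, where again 17 beta genes had an adjusted p, 4 of the last 8 and 1 of the 13 before were called higher.

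**Figure D4:**
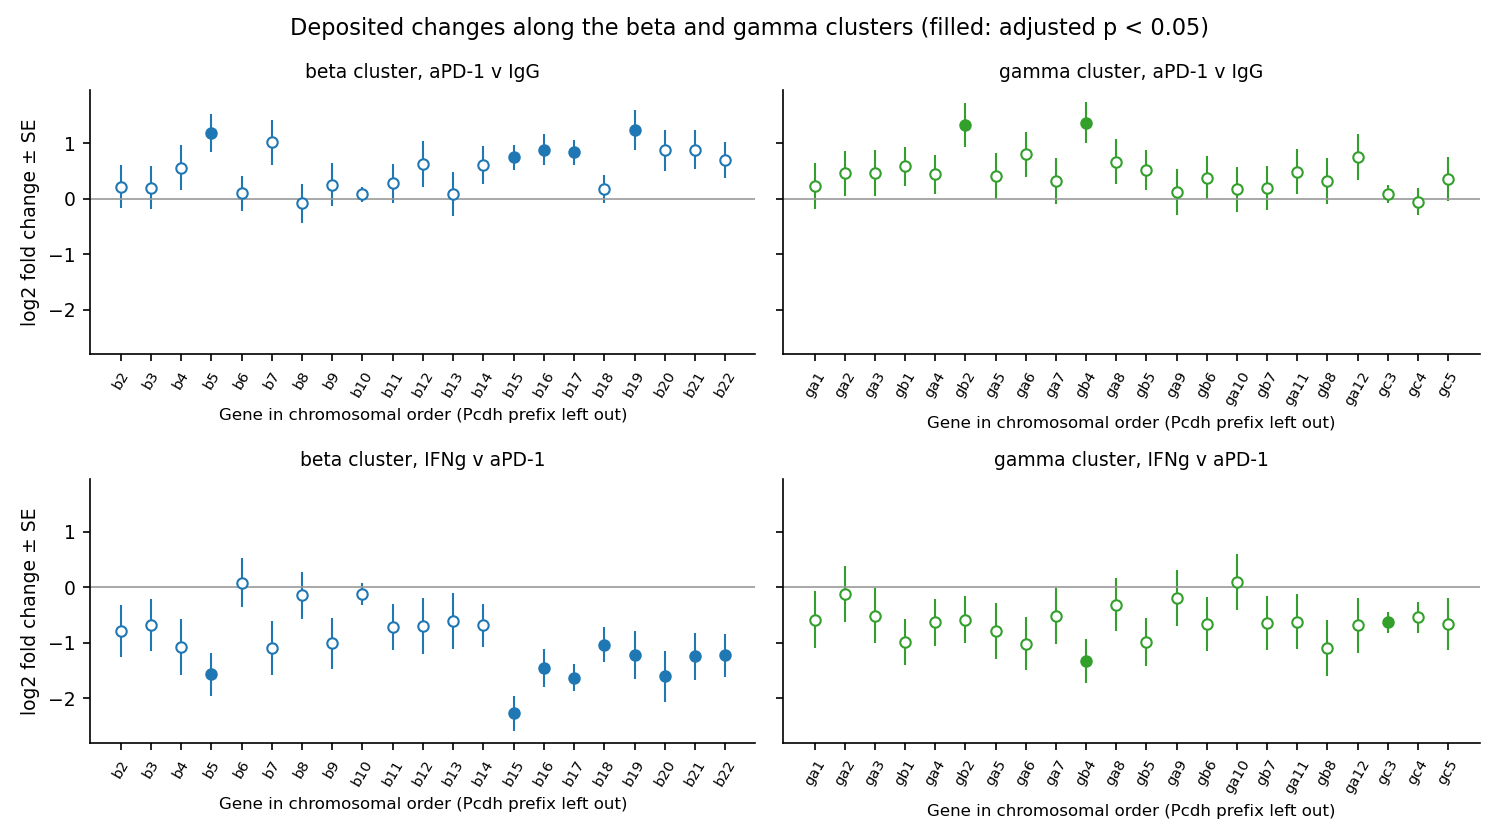
Deposited log2 fold changes with standard errors (bars) along the beta and gamma clusters, in chromosomal order, for aPD-1 v IgG (top) and IFNg v aPD-1 (bottom); filled points have an adjusted p under 0.05. The 8 beta genes at the right end, b15 to b22, are all filled in the lower panel, and gc3 and gc4 lie near 0 in the upper panel.

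Genes that work with protocadherins did not share 1 direction in aPD-1 v IgG, where 8.5% of all tested genes were higher and 10.0% lower. Of 17 tested regulators of the clustered promoters 1 was higher and 3 were lower, not far from those shares. Setdb1, a histone methyltransferase that represses the clusters, rose by 0.52 ± 0.15, in the authors' deposited table. The cohesin subunit Smc1a (-0.52 ± 0.14), the maintenance DNA methyltransferase Dnmt1 (-0.55 ± 0.16) and the cohesin cofactor Pds5a (-0.38 ± 0.13) fell, all in the authors' deposited table. Of 14 tested cytoplasmic partners 0 were higher and 3 were lower: Cyfip2 of the actin-regulating WAVE complex at -1.81 ± 0.23, Set at -0.59 ± 0.19 and the kinase Fyn at -0.35 ± 0.13, in the authors' deposited table. Of 6 tested genes of the cleavage machinery Adam10, the protease that sheds protocadherin ectodomains, rose by 0.46 ± 0.14 in the authors' deposited table, and 0 fell. Of 17 listed classical and type II cadherins 8 were tested, and 2 of these were higher, Cdh13 at 1.46 ± 0.19 and Cdh5 at 1.49 ± 0.28, and Cdh22 was lower at -1.48 ± 0.40, in the authors' deposited table. The share of tested cadherins called higher was thus close to that of the protocadherins. The summed inferred level of the 12 cadherins listed in all 5 comparisons was 584 in IgG, 1113 in aPD-1, 537 in aPD-1+CD8 and 730 in IFNg, also highest in aPD-1. Most counts of these cadherins came from 1 gene, with a mean count of 529 of a total of 876 in aPD-1 v IgG. The median log2 fold change of the 17 listed cadherins was 0.083 there. Among 7 tested large and other cadherins Fat1 rose by 0.83 ± 0.16 and Clstn3 was at -0.46 ± 0.16 and lower, and 2 of 7 tested catenins fell, Pkp4 at -0.65 ± 0.16 and Jup at -0.93 ± 0.34, in the authors' deposited table. The median of the 17 regulators was 0.01, in the authors' deposited table.

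Markers of other cell types were measured beside these changes, and their part in them was not tested. In bulk RNA, more cells of a type and more RNA per cell cannot be told apart. Of 7 listed fibroblast and mural markers 6 were tested, and 4 rose with aPD-1 and 0 fell, beside 8.5% and 10.0% of all tested genes. Their summed inferred level was 2995 in IgG, 9391 in aPD-1, 2713 in aPD-1+CD8 and 2823 in IFNg. The epithelial markers summed to between 1.31 and 6.21 in the 4 groups over the 2 genes listed in all 5 comparisons, and Epcam had a mean count of 0.152 in aPD-1 v IgG, so the epithelial origin of the carcinoma was not visible in them. Of 6 endothelial markers Cdh5, the 1 tested, rose with aPD-1, while Pecam1 at 1.18, Vwf at 1.16, Tek at 0.661 and Kdr at 0.545 had mean counts near 0 in the authors' deposited table. Macrophage markers summed to 331 in IgG, 223 in aPD-1, 317 in aPD-1+CD8 and 531 in IFNg. In aPD-1 v IgG 4 macrophage markers were tested, 0 were called higher and 1 lower, with a median log2 fold change of -0.379. None of them was called higher with IFNg than with IgG: of 3 tested, Mertk was lower at -0.86 ± 0.19, and Csf1r, with the highest mean count of the list there, had no p-value in the authors' deposited table. Of 6 tested markers of neurons and glia, cells in which clustered protocadherins are known to be abundant, 2 were higher in aPD-1 v IgG, Syn1 at 2.04 ± 0.38 and Gap43 at 1.85 ± 0.41, and 1 was lower, in the authors' deposited table. Snap25 and Gfap had mean counts of 0.191 and 0.255 in that comparison of the authors' deposited table. Summed over the 9 listed in all 5 comparisons the inferred level was 2034 in IgG, 2310 in aPD-1, 1826 in aPD-1+CD8 and 3157 in IFNg. Most counts of the list came from 1 gene, with a mean count of 2481 of a total of 2597 in IFNg v IgG. Of 5 tested in IFNg v IgG 1 was called higher and 1 lower. In IFNg v aPD-1, of 6 tested, 0 were called higher and 3 lower.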

How the data were processed

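RNA of 12 cultures (4 groups of 3) was made into exome capture libraries from 250 ng of total RNA, per the labels' protocols. The authors deposited 5 tables made with DESeq2 on build mm9, per the submitters' processing notes. For the aligner, counter, annotation and strand no statement was found (not given in the sources used here). Each deposited table holds, per the file headers, 1 signal per gene (the mean normalized count over both groups), its log2 fold change, the standard error, the Wald score, and the raw and adjusted p-value. A change was called at an adjusted p under 0.05, over all genes of the authors' table. The Wald scores and adjusted p-values were recomputed from the tables with the same values. Summed over genes, the mean normalized count was 10292941 to 11590748 per comparison; totals of single samples were not analysed here.

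Group levels were inferred with SciPy 1.17.1 and Python 3.11.15. Scale factors were fitted on genes with mean counts of at least 100, except those of aPD-1 v IgG. Those were fitted to deposited fold changes of genes of at least 1000, the same genes on which levels were compared. On simulated libraries the log2 ratios of inferred levels missed those of the drawn counts by up to 0.0056 for 95% of 9914 genes. All 62 symbols matched RefSeq's table (GRCm38.p6), which was used for names, gene order and promoters. Named genes were members called in any comparison or with a mean count of at least 10, and up to 4 called genes per other list by p. Some called markers of cell types, among them those of fibroblast and mural cells, are given only by counts or sums. Members and lists were chosen with earlier results of these data known.

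The tables held 0 columns of single samples, so leaving out a library, TMM factors and a spread between libraries were not analysed here. Some markers of neurons and glia are not reported here.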

Additional observations from a re-analysis of the deposited data

How the results depend on the processing

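Calls went the same way under every alternative run: all higher in aPD-1 v IgG, all lower in the other comparisons with calls, and 0 in aPD-1+CD8 v IgG (DESeq2). Centring on the median gene, dropping the filter on low counts and testing only genes whose mean count reached 10 kept every count within 1.5 times. Against an empirical null, 1 of 50 tested members passed in aPD-1 v IgG in place of 12, beside 4.32% of all tested genes. In aPD-1+CD8 v aPD-1 it was 1 of 49 in place of 9, beside 3.39%. In IFNg v IgG it was 1 of 41 in place of 4, beside 3.03%. In IFNg v aPD-1 it was 4 of 51 in place of 15, beside 4.49%. These shares of all genes, and those below, count either direction. Only in IFNg v aPD-1 was the family's share under this null the larger. At an adjusted p of 0.01 there were 4 in aPD-1+CD8 v aPD-1, beside 9.51% of all tested genes. In IFNg v IgG there was 1, beside 2.80%. Both shares of the family were below those of all genes. Requiring a log2 change of 1 or more left 7 in aPD-1 v IgG, beside 5.88% of all tested genes. It left 1 in IFNg v IgG, beside 1.66%. Leaving out each replicate and TMM factors were not run. No paired analysis was possible because the tables hold no values of single samples. Low counts limit 31 of the 62 members.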
